A study of Mus musculus with 10 samples.

Results

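The genes described here are 9 genes of vitamin A uptake and retinoid metabolism, *Rbp2*, *Bco1*, *Isx*, *Lrat*, *Rdh7*, *Aldh1a1*, *Retsat*, *Rarb* and *Stra6*. They were given by symbol, with earlier results of these data known, were matched to Ensembl gene IDs, and make up 9 of the 35275 gene IDs counted. RNA-seq had been carried out on proximal intestine of 5 WT and 5 KO mice, with 1 library per mouse. The KO mice are described as lacking *Zip14* (*Slc39a14*), a zinc and manganese transporter of the cell membrane, and the WT mice are controls of the same strain, both taken from matings of heterozygous parents. The methods of the study describe a whole-body deletion for these libraries, while the series title places the deletion in enterocytes and the sample labels give only KO or WT. All samples are labelled with an age of 8 to 10 weeks, and the labels name no agent given to either group.

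Vitamin A enters the enterocyte, the absorptive cell of the small intestine, either as retinol or as plant carotenoids that are cleaved to retinaldehyde inside the cell. Retinol is held by a cellular binding protein, esterified with fatty acids and packed into chylomicrons, the lipoproteins that carry dietary fat into the lymph. A smaller share is oxidized, first to retinaldehyde and then to retinoic acid, which binds nuclear receptors and in the intestine feeds back on carotenoid uptake through the transcription factor ISX.

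The total count per library was between 16729787 and 20819678 in WT mice and between 17118742 and 19414828 in KO mice. Values are counts scaled to library size (CPM) after TMM scaling, and a log2 fold change is KO over WT from edgeR's quasi-likelihood test, adjusted by the Benjamini-Hochberg method over the 15610 genes that passed a filter on low counts. All 9 members passed this filter. *Slc39a14* transcripts were lower in KO mice, at 102 ± 32.9 CPM against 260.4 ± 62.5 CPM (SD, n = 5 each). Every KO library still held between 1636 and 2842 counts of it, so that counts over the whole gene do not by themselves show the deletion. Apart from the members, the libraries differed widely. *Lct*, the lactase of the proximal small intestine, lay between 3363 and 3783 CPM in WT and between 0.315 and 702 CPM in KO, and *Fabp6*, an ileal protein that carries bile acids, lay between 0.0638 and 1.74 CPM in WT and between 2307 and 9058 CPM in KO. Of the ileum markers 4 of 4 were higher in KO mice, as were 6 of 6 smooth muscle markers, 4 of 4 neuron and glia markers and 6 of 8 pan-epithelial markers, while 5 of 8 enterocyte markers were lower. Of the 5 proximal markers tested, 2 were lower, *Fabp1* (-5.44, adjusted p = 9.30e-04) and *Gata4* (-3.56, adjusted p = 0.0177). *Lct* (-4.16, adjusted p = 0.0632), *Cybrd1* (-0.32, adjusted p = 0.401) and *Slc40a1* (0.66, adjusted p = 0.236) did not pass. On the ileum markers and on *Fabp1* and *Gata4*, the KO libraries went against their label of proximal intestine, and genotype and position along the intestine cannot be told apart in any comparison here, that of *Slc39a14* included. KO replicate 2 also held 1172 CPM of *Car1*, a colon marker that was at most 11.3 CPM elsewhere, and 70.8 CPM of the other colon marker, *Aqp8*, which reached 49.9 CPM in WT replicate 3.

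Of the 9 members, 5 were lower in KO mice, 2 were higher and 2 did not pass the threshold of 0.05. Transcripts of *Rbp2*, *Rdh7*, *Retsat*, *Aldh1a1* and *Lrat*, which bind, oxidize, saturate or esterify retinoids, fell, and those of *Bco1* and *Stra6* rose. Over all genes tested, 29.9% were called, with 13.9% lower and 16.0% higher in KO. The members gave 77.8% called, 55.6% lower and 22.2% higher, which is 5 and 2 genes and no more than a description of a chosen list. In 4 of the 9 members, all KO libraries were below all WT libraries, and in 0 were they all above. Among all genes tested the groups did not overlap in 21.1%, with KO below in 10.8% and above in 10.2%. The median log2 fold change was -0.91 over the members and 0.03 over all genes tested. With the mean level of the smooth muscle or of the pan-epithelial markers as a covariate, 0 members were called in either direction. Of all 15610 genes, 6 were called in each of those fits. Neither marker level overlapped between the groups, so these fits cannot separate genotype from the marker level. In the smooth muscle and pan-epithelial fits, the log2 fold change was -1.94 and -1.06 for *Rbp2*, -1.96 and -1.05 for *Rdh7*, -1.54 and -0.86 for *Retsat*, and -0.50 and -0.45 for *Lrat*. It was 1.34 and 2.05 for *Bco1*, and 1.86 and 3.36 for *Stra6*. In whole tissue, fewer cells of a type and less RNA per cell cannot be told apart.

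**Figure D1:**
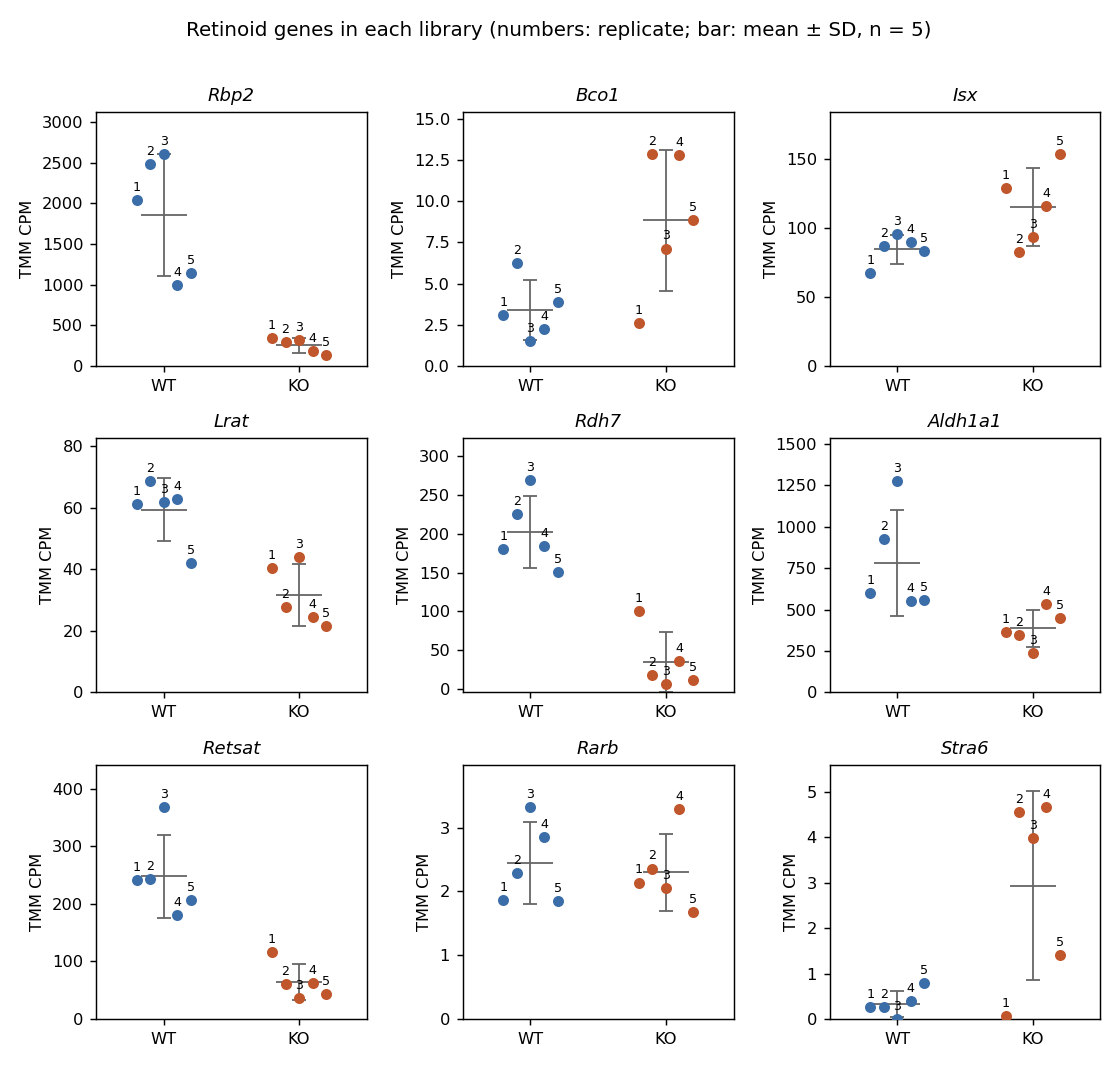
TMM CPM (y axis, scaled per gene) of each of the 9 members in the 5 WT and 5 KO libraries. The axes start at 0, except for *Rdh7*, where the SD bar of KO runs below 0. Points are single mice with their replicate number, and the grey bar is the mean ± SD. The KO points of *Rbp2*, *Rdh7*, *Aldh1a1* and *Retsat* all lie below the lowest WT point, whereas those of *Lrat*, *Bco1*, *Isx*, *Rarb* and *Stra6* run into the WT range.

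Before the single genes, the promoters of 4 members are shown: *Rbp2* and *Retsat*, which were lower and did not overlap between groups, *Lrat*, which was lower with overlap, and *Bco1*, which was higher. Each is the stretch of 250 bases before a RefSeq start site in GRCm38.p6, written 5′ to 3′ on the strand of the gene. All 9 members matched an entry, with 14 start sites in all, and the *Rbp2* start lies 4422 bases inside the gene as GENCODE draws it. Exact words for 4 kinds of factors were searched on both strands. The word for nuclear receptors was AGGTCA, the core that a single receptor of this class contacts. The word for GATA factors was AGATAA, which zinc finger proteins such as GATA4 bind. The word for CDX factors, homeobox proteins of the intestine, was TTTATG. The word for HNF1, a homeobox protein of liver and gut, was GTTAAT. Capitals mark the matches, which read here as their reverse complement.
Rbp2, chr9:98490287-98490536, plus strand: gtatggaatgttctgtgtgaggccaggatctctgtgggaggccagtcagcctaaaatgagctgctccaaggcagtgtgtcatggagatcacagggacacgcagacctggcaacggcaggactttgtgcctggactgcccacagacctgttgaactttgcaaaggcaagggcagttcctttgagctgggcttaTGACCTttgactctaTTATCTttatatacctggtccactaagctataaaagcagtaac
Bco1, chr8:117095615-117095864, plus strand: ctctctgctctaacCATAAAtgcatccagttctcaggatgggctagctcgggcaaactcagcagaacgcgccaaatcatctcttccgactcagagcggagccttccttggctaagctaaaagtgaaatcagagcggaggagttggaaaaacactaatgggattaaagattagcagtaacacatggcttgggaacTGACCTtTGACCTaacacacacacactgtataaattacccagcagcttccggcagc
Retsat, chr6:72598352-72598601, plus strand: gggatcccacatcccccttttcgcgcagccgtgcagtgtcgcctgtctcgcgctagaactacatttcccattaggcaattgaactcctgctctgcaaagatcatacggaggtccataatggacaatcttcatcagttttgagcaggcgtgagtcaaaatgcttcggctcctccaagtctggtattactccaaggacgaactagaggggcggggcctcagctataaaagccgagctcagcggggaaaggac
Lrat, chr3:82903975-82904224, minus strand: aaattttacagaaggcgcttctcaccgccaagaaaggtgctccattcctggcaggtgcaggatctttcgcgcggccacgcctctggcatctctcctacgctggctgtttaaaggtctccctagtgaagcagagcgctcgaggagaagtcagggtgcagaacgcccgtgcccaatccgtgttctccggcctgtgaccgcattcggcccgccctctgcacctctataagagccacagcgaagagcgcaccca
The *Rbp2* window held the nuclear receptor word from 58 to 53 bases before the start and the GATA word from 43 to 38. The *Bco1* window held the nuclear receptor word at 2 places, from 56 to 51 and from 49 to 44 bases before the start, with 1 base between them, and the CDX word from 236 to 231. None of the matches overlapped another. Neither the *Retsat* nor the *Lrat* window held any of the 4 words, nor did those of *Isx* and *Rarb*. Of the other members, 1 of the *Rdh7* windows held the nuclear receptor and CDX words, and 1 window each of *Aldh1a1* and *Stra6* held the GATA word. The starts of these *Aldh1a1* and *Stra6* windows lie 109253 and 70287 bases inside the genes as GENCODE draws them. The *Rarb* start lies 243680 bases inside. The start of that *Rdh7* window was not found in a GENCODE transcript. Of the 32851 windows of the same length in the table, 14.0% held the nuclear receptor word, 9.99% the GATA word, 10.8% the CDX word and 6.43% the HNF1 word. The matches are those of letters alone, and *Rbp2* and *Bco1*, which both carry the nuclear receptor word within 60 bases of the start, differed in the direction of their change.

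*Rbp2* (ENSMUSG00000032454, chromosome 9, 98486115 to 98509781, plus strand, 6 exon blocks in GENCODE M21 on GRCm38) encodes cellular retinol binding protein 2, which holds retinol and retinaldehyde in the enterocyte and hands retinol to the esterifying enzyme. The WT libraries had 2036, 2482, 2605, 994 and 1137 CPM for replicates 1 to 5, and the KO libraries had 343, 299.7, 319, 189 and 131 CPM. The highest KO library was well under the lowest WT library, and within WT replicates 4 and 5 stood below the other three. The mean was 1851 ± 749 CPM in WT and 256 ± 91.5 CPM in KO, and the log2 fold change was -2.85 (standard error 0.36, 95% interval -3.64 to -2.07, adjusted p = 4.99e-04 from edgeR). That is 7.22-fold lower in KO. Per kb of exon, *Rbp2* ranked 24 of 15538 genes in WT and 177 in KO.

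Transcripts of the enzyme that RBP2 supplies also fell. *Lrat* (ENSMUSG00000028003, chromosome 3, 82892579 to 82903973, minus strand, 2 exon blocks) encodes lecithin retinol acyltransferase, which forms the retinyl esters that are packed into chylomicrons. Its WT libraries had 61.3, 68.9, 61.8, 62.9 and 42.0 CPM, and its KO libraries 40.6, 27.6, 44.0, 24.4 and 21.7 CPM. KO replicate 3 was above WT replicate 5, and the other 4 KO libraries were below all WT libraries. The means were 59.4 ± 10.2 and 31.7 ± 10.0 CPM, a log2 fold change of -0.91 (standard error 0.21, 95% interval -1.37 to -0.45, adjusted p = 0.00940 from edgeR).

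*Bco1* and *Isx* belong to the branch that starts from carotenoids. *Bco1* (ENSMUSG00000031845, chromosome 8, 117095854 to 117133720, plus strand, 12 exon blocks) encodes beta-carotene oxygenase 1, the enzyme that splits beta-carotene into retinaldehyde. It had 3.11, 6.25, 1.52, 2.25 and 3.87 CPM in WT and 2.59, 12.9, 7.12, 12.8 and 8.87 CPM in KO, from 26 to 98 counts in a WT library and 46 to 268 in a KO library. The KO libraries 2 to 5 exceeded every WT library, and KO replicate 1 was within the WT range. The log2 fold change was 1.38 (standard error 0.45, 95% interval 0.39 to 2.37, adjusted p = 0.0396 from edgeR), while an exact permutation test of the mean log2 CPM gave a two-sided p of 0.0556. The call held without WT replicate 2 (1.71, adjusted p = 0.0269) or KO replicate 1 (1.61, adjusted p = 0.00805) and was lost without any other mouse, with adjusted p between 0.0565 and 0.0849. Over all genes tested, 20.2% to 34.7% were called when 1 mouse was left out, against 29.9% with every mouse.

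*Isx* (ENSMUSG00000031621, chromosome 8, 74873173 to 74893506, plus strand, 4 exon blocks) encodes the intestine-specific homeobox factor, which retinoic acid induces and which represses *Bco1* and *Scarb1*. It had 67.7, 87.0, 95.7, 89.6 and 83.2 CPM in WT and 129, 82.9, 93.3, 116 and 154 CPM in KO. KO replicates 1, 4 and 5 were above all WT libraries, and the remaining KO libraries were within the WT range. The log2 fold change of 0.44 (standard error 0.16, 95% interval 0.08 to 0.80, adjusted p = 0.0615 from edgeR) did not pass the threshold. It passed without KO replicate 2 (0.53, adjusted p = 0.0258) and when counts were scaled by library size alone (0.56, adjusted p = 0.0194), a scaling that raised the median of all genes by 0.12 on the log2 scale. *Bco2*, which cleaves carotenoids off-centre in the mitochondrion, went the other way from *Bco1*, at 142 ± 13.9 CPM in WT and 37.9 ± 10.6 CPM in KO with no overlap (log2 fold change -1.90, adjusted p = 1.26e-04). *Scarb1*, the scavenger receptor that takes up carotenoids, had 21.2 ± 11.1 CPM in WT and 13.3 ± 4.81 CPM in KO and was not called (-0.67, adjusted p = 0.158).

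Both members that oxidize retinol or retinaldehyde were lower. *Rdh7* (ENSMUSG00000040134, chromosome 10, 127884028 to 127888817, minus strand, 4 exon blocks) encodes a short-chain dehydrogenase that turns retinol into retinaldehyde. The WT libraries had 180, 226, 269, 184 and 150 CPM, and the KO libraries 100.1, 18.2, 6.04, 36.0 and 11.1 CPM. The groups did not overlap, and KO replicate 1 stood far above the other KO libraries. The log2 fold change was -2.56 (standard error 0.64, 95% interval -3.96 to -1.16, adjusted p = 0.0131 from edgeR), and -3.50 without KO replicate 1. Of the relatives in the same cluster on chromosome 10, whose similar sequences could share reads, *Rdh1* rose from 0.362 ± 0.0835 to 3.22 ± 0.611 CPM with all KO libraries above all WT libraries (3.13, adjusted p = 5.48e-05). Its WT libraries held 5 to 9 counts each, under the filter's minimum count of 10, so *Rdh1* was tested only through its KO libraries. *Rdh9* (-0.29, adjusted p = 0.277) and *Rdh16* (0.09, adjusted p = 0.824) were not called.

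*Aldh1a1* (ENSMUSG00000053279, chromosome 19, 20492715 to 20643465, plus strand, 21 exon blocks) encodes a retinaldehyde dehydrogenase, which makes retinoic acid. It had 599, 929, 1280, 550 and 556 CPM in WT and 362, 346, 237, 535 and 452 CPM in KO. KO replicate 4 came close to the lowest WT library, and the groups did not overlap. The log2 fold change was -1.02 (standard error 0.28, 95% interval -1.64 to -0.40, adjusted p = 0.0211 from edgeR). This call was lost without WT replicate 2 (-0.95, adjusted p = 0.0519) and without KO replicates 1 and 2 together (-0.94, adjusted p = 0.0706), and the value was 0.07 with the pan-epithelial and -1.28 with the smooth muscle covariate. *Aldh1a7*, a close relative beside it that could share its reads, was also lower (-1.09, adjusted p = 0.0246), a call lost without WT replicate 2 or 3 or KO replicate 3 (adjusted p of 0.0527 to 0.0624).

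*Retsat* (ENSMUSG00000056666, chromosome 6, 72598475 to 72608425, plus strand, 12 exon blocks) encodes retinol saturase, which reduces retinol to dihydroretinol. The WT libraries had 241, 242, 368, 181 and 206 CPM, and the KO libraries 116, 60.8, 35.7, 62.4 and 43.2 CPM. All KO libraries were below all WT libraries, and KO replicate 1 was again the highest of its group. The means of 248 ± 72.0 and 63.6 ± 31.3 CPM gave a log2 fold change of -1.96 (standard error 0.31, 95% interval -2.65 to -1.28, adjusted p = 0.00160 from edgeR). Its exons share 650 of 3537 bases with *Gm45053* on the other strand, which was not analysed here.

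*Rarb* and *Stra6* are the receptors among the members, one in the nucleus and one at the cell surface. *Rarb* (ENSMUSG00000017491, chromosome 14, 16430839 to 16819156, minus strand, 11 exon blocks) encodes retinoic acid receptor beta, whose own transcription retinoic acid induces. It was low, with 1.87, 2.30, 3.33, 2.86 and 1.85 CPM in WT and 2.14, 2.36, 2.05, 3.29 and 1.68 CPM in KO. The ranges lay almost on each other, and the log2 fold change was -0.08 (standard error 0.24, 95% interval -0.61 to 0.45, adjusted p = 0.826). Of its 5265 exon bases, 1793 are shared with *Top2b* on the other strand, a gene with 8714 counts in WT and 8552 in KO. How strand was handled in the counting is not given in the sources used here, so some of these reads may belong to *Top2b*.

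*Stra6* (ENSMUSG00000032327, chromosome 9, 58063788 to 58153996, plus strand, 24 exon blocks) encodes the membrane receptor that takes retinol from its carrier in plasma. Its WT libraries had 5, 4, 0, 7 and 14 counts, and its KO libraries 1, 87, 74, 98 and 27 counts. KO replicates 2 to 5 were above all WT libraries, and KO replicate 1 was among the lowest. With 0.337 ± 0.287 CPM in WT and 2.94 ± 2.08 CPM in KO, the log2 fold change was 3.10 (standard error 0.87, 95% interval 1.18 to 5.01, adjusted p = 0.0223 from edgeR), and the exact permutation test gave a two-sided p of 0.0635. The call was lost without WT replicate 1 (3.01, adjusted p = 0.0567) or WT replicate 2 (3.01, adjusted p = 0.0564). *Cd79a*, a marker of B cells, had 55.5, 54.1 and 72.2 CPM in KO replicates 2, 3 and 4, against 7.55 and 15.5 CPM in KO replicates 1 and 5 and between 6.26 and 27.2 CPM in WT. Of the 5 immune markers as a list, 0 were higher and 1 was lower, with summed levels of 138 to 182 CPM in WT and 108 to 190.2 CPM in KO. The part of B cells in the *Stra6* counts was not tested.

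The order of the members by level is given per kb of exon, since longer genes collect more reads. In WT it was *Rbp2* (1924 CPM per kb), *Aldh1a1* (158), *Rdh7* (120.4), *Retsat* (70.1), *Isx* (47.2), *Lrat* (11.1), *Bco1* (1.34), *Rarb* (0.463) and *Stra6* (0.0578). Each gene exceeded the next in all 5 WT libraries, except *Bco1* over *Rarb* in 4 of 5. The ranges over mice overlapped from *Aldh1a1* down to *Isx* between each gene and the next, and between *Bco1* and *Rarb*, while *Rbp2*, *Lrat* and *Stra6* stood clear of their neighbours. In KO the order ran *Rbp2* (266.6), *Aldh1a1* (78.3), *Isx* (64.2), *Rdh7* (20.4), *Retsat* (18.0), *Lrat* (5.92), *Bco1* (3.48), *Stra6* (0.504) and *Rarb* (0.438). *Isx* moved from the fifth place to the third, above *Rdh7* and *Retsat*. *Aldh1a1* was above *Isx*, and *Lrat* above *Bco1*, in 4 of 5 KO libraries. The neighbours *Rdh7* and *Retsat*, in this order in 2 of 5 libraries, and *Stra6* and *Rarb*, in 3 of 5, did not differ beyond their spread.

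**Figure D2:**
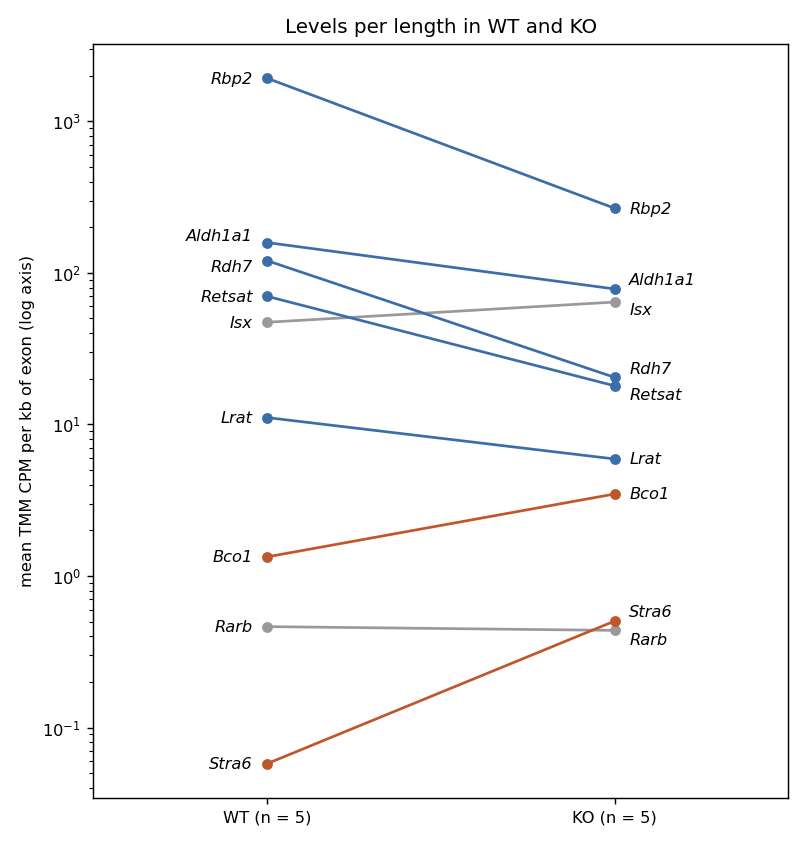
Mean TMM CPM per kb of exon (log axis) of the 9 members in WT and KO mice (n = 5 each), with a line joining the means of a gene. Blue lines fell and orange lines rose at an adjusted p under 0.05, and grey lines did not pass. *Rbp2* stays on top at 1924 in WT and 266.6 in KO, while the lines of *Rdh7* and *Retsat* cross that of *Isx*.

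For each member, the gene with the most similar pattern was the one with the smallest root mean square difference of log2 CPM over the 10 libraries, each gene centred on its own mean. It was *Cck*, the hormone cholecystokinin, for *Rbp2* (0.18), *Dusp16* for *Lrat* (0.17), *Ddc*, a decarboxylase of aromatic amino acids, for *Retsat* (0.21), and *Gpt*, an alanine aminotransferase, for *Aldh1a1* (0.24). *Ntn4* was nearest to *Isx* (0.12), *Arhgef15* to *Rarb* (0.14), *Scn9a* to *Bco1* (0.35) and *Ms4a10* to *Rdh7* (0.38). The nearest gene to *Stra6* was *Cxcl13*, a chemokine for B cells, at a larger distance (0.79). These pairs were picked over all genes tested and are given as a description.

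A list of 45 other genes of the pathway was set beside the members. Of these, 6 were below the filter on low counts, among them the retinoic acid binding proteins *Crabp1* and *Crabp2*, and 39 were tested. In KO mice 15 were lower (38.5%) and 4 were higher (10.3%), against the 13.9% and 16.0% of all genes tested, and the median log2 fold change was -0.29. All KO libraries lay below all WT libraries in 13 of the 39 (33.3%) and above them in 2 (5.13%), against 10.8% and 10.2% of all genes tested.

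All 3 genes of esterification and chylomicron assembly fell without overlap. *Mttp*, the transfer protein that loads lipid onto apolipoprotein B, had 2778 ± 692 CPM in WT and 627 ± 469 CPM in KO (-2.15, adjusted p = 0.00413). *Apob*, the protein of the chylomicron itself, had 4108 ± 582 and 1950 ± 632 CPM (-1.07, adjusted p = 0.00625). *Dgat1*, which can also esterify retinol, had 900.5 ± 60.8 and 446 ± 125 CPM (-1.02, adjusted p = 0.00254). Of the 3 uptake genes, none was called, and *Cd36*, a fatty acid transporter, had 155 ± 17.1 and 68.4 ± 51.2 CPM (-1.18, adjusted p = 0.0578).

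Of the 15 retinol and retinaldehyde oxidoreductases, 6 fell, 1 rose and 8 were not called. The alcohol dehydrogenases had the largest falls. *Adh1* fell from 444 ± 290 to 50.9 ± 35.7 CPM (-3.13, adjusted p = 0.00327). *Adh4* fell from 32.4 ± 27.7 to 1.48 ± 1.57 CPM (-4.46, adjusted p = 0.00475), with 0 counts in KO replicate 5. It was -3.84 without WT replicate 3 and -5.15 without KO replicate 1. *Adh7* was scarce, at 2.27 ± 0.964 and 0.191 ± 0.157 CPM (-3.53, adjusted p = 0.00153), and with 0 to 7 counts in a KO library it was tested only through its WT libraries. In each of the 3, all KO libraries were below all WT libraries. *Dhrs4* (-1.07, adjusted p = 0.00244), *Rdh10* (-0.69, adjusted p = 0.00320) and *Rdh11* (-0.53, adjusted p = 0.00319) were also lower, the latter by the smallest step of this group. *Rdh1* was the 1 member of the group that rose.

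Among the 4 further retinaldehyde dehydrogenases 3 fell. *Aldh1a3* went from 72.1 ± 12.4 to 19.5 ± 7.28 CPM (-1.89, adjusted p = 4.69e-04) and *Aldh1a2* from 24.2 ± 2.06 to 11.5 ± 5.22 CPM (-1.08, adjusted p = 0.00770). *Aldh1a7* is given above, and *Aldh8a1* was not called. *Cyp26b1*, which breaks retinoic acid down, had 6.60 ± 2.43 CPM in WT and 7.37 ± 1.73 CPM in KO (0.16, adjusted p = 0.700).

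Among binding proteins, receptors and response genes, calls went both ways. *Rbp7*, a cellular retinol binding protein, fell from 18.0 ± 2.53 to 10.9 ± 4.23 CPM (-0.72, adjusted p = 0.0464), and *Rbp4*, the plasma carrier of retinol, rose from 4.46 ± 1.40 to 12.9 ± 11.1 CPM (1.54, adjusted p = 0.0396) with overlap. KO replicate 4 had 31.8 CPM of *Rbp4* and the other KO libraries 4.28 to 14.0 CPM. Leaving out that library gave 0.89 (adjusted p = 0.0912). The *Rbp4* call was also lost without KO replicate 2 or any 1 WT mouse, and the *Rbp7* call without any 1 mouse other than KO replicate 5, with adjusted p of at most 0.104. Of the nuclear receptors tested, *Rarg* rose from 7.64 ± 1.97 to 13.2 ± 2.42 CPM (0.79, adjusted p = 0.0106). *Rxra*, the most abundant of them and the partner of the retinoic acid receptors, had 211 ± 6.02 and 201 ± 17.7 CPM (-0.07, 95% interval -0.26 to 0.12, adjusted p = 0.556). Among 3 tested genes that retinoic acid is known to induce, *Cd38* rose from 73.9 ± 2.71 to 113 ± 28.8 CPM without overlap (0.62, adjusted p = 0.00977), *Nrip1* fell from 92.4 ± 7.06 to 67.6 ± 15.1 CPM (-0.45, adjusted p = 0.0427), and *Tgm2* was not called (0.20, adjusted p = 0.501). The *Nrip1* call was lost without any of WT replicates 1, 2, 3 and 5 and KO replicates 1, 3 and 5, with adjusted p of at most 0.0861. The 3 went in no common direction.

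**Figure D3:**
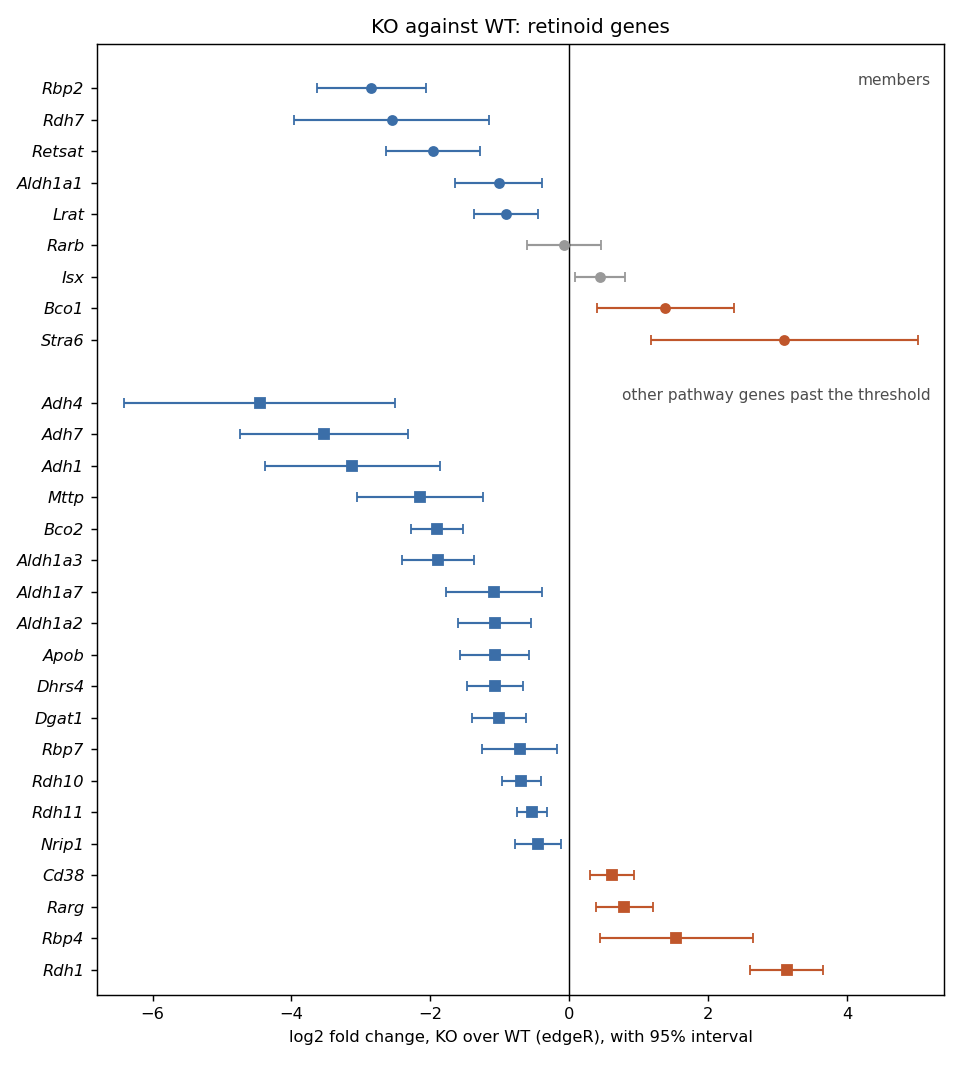
Log2 fold change of KO over WT from edgeR (x axis), with its 95% interval, for the 9 members (circles) and the 19 other pathway genes past the threshold (squares). Blue marks lower and orange higher in KO at an adjusted p under 0.05, and grey marks genes that did not pass. The called marks left of 0 run from *Adh4* at -4.46 to *Nrip1* at -0.45, and *Rdh1* and *Stra6* lie farthest right at 3.13 and 3.10.

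The libraries of a group differed in how far these genes moved. Of the 20 members and pathway genes that were lower in KO, KO replicate 1 had the highest level of its group in 13. Over all 2169 genes called lower, it was the highest in 50.4%. It also had the most *Slc39a14* of the KO libraries, 160.1 CPM. Its mean log2 CPM was the highest of the KO libraries over the enterocyte markers, 10.2 against 7.29 to 9.67, and over the proximal markers, 4.49 against 1.15 to 4.16. Both lists hold *Fabp1* and *Lct*, so their means are not independent. Among the 6 proximal markers, *Fabp1*, *Slc40a1* and *Pdx1* were higher in other KO libraries. Without KO replicates 1 and 2, 4 members were lower and 3 higher, *Isx* being the third (0.52, adjusted p = 0.0390). The pathway list then gave 14 lower and 4 higher. That fit called more of all genes too, 16.4% lower and 18.3% higher. In WT, replicates 4 and 5 had less *Rbp2* than replicates 1 to 3. Their mean log2 CPM over the 8 enterocyte markers was 11.5 and 11.8 against 11.9 to 12.1, and over the 6 proximal markers 5.73 and 5.84 against 6.45 to 7.18, while single markers such as *Lct* went the other way.

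**Figure D4:**
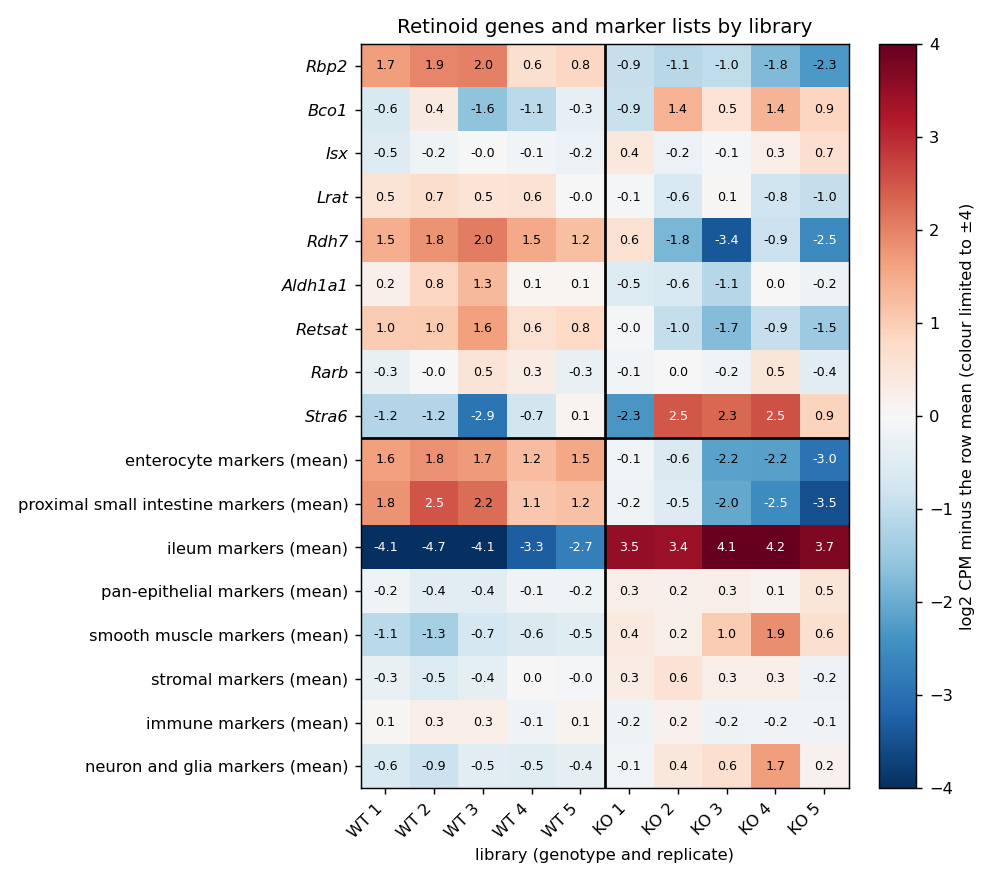
Log2 CPM minus the row mean for the 9 members (upper rows) and for the mean of 8 marker lists (lower rows) in each of the 10 libraries. Red is above and blue below the row mean, with colour limited to 4 on each side and the value printed in each cell. The enterocyte and proximal rows are low and the ileum and smooth muscle rows high in the KO libraries, with KO 1 nearest to WT in the rows of *Rdh7* and *Retsat*.

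The pan-epithelial markers, which are found in all epithelial cells, were as a group higher in KO, with a mean log2 CPM of 9.49 to 9.81 in WT and 10.1 to 10.4 in KO, a difference of 0.53. Values relative to this mean are lower in KO by that amount for every gene. The median over all genes tested was -0.52, and all KO libraries were below all WT libraries in 41.2% of them and above in 1.49%. On this scale *Rbp2* differed by -3.36, *Rdh7* by -3.74, *Retsat* by -2.57, *Aldh1a1* by -1.52 and *Lrat* by -1.48, *Isx* by -0.12 and *Rarb* by -0.61, *Bco1* by 0.78 and *Stra6* by 1.83. *Rarb* was thus near the median of all genes, and its value shows the common shift. This ratio was chosen after the data had been seen and is given as a description.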

How the data were processed

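Sections of proximal intestine of 5 WT and 5 KO mice had been sequenced after library preparation with a SMARTer mRNA-Seq kit, and each mouse gave 1 library. Raw read counts for every Ensembl gene ID were deposited by the authors, with no normalization. The submitters' processing notes name FastQC 0.11.9, Trimmomatic, HISAT2 2.0.4, SAMtools 1.3.1, DESeq2 1.14.1 and the build GRCm38 (mm10), while for the read counter, the annotation used and the strand setting the entry is "not given in the sources used here". Whether mice shared a litter or day is not given either. The p-values set the difference between groups against the spread between mice within them, and take each mouse as independent. The median total was 18206101 counts in WT and 18146070 in KO, and 0 counts allow a true mean of up to 3 counts (95% limit, counting error only).

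Gene IDs were named and placed with GENCODE M21, which gave a symbol to 34490 of 35275. In R 4.3.3, edgeR 4.0.16 was used for the quasi-likelihood test with TMM scaling, filterByExpr (minimum count 10, minimum total 15) and Benjamini-Hochberg adjustment over 15610 genes. Log2 CPM values have a prior count of 2. The script was tested on simulated data. The exact permutation tests were two-sided over all ways to divide 10 mice into 5 and 5. Alternatives were RLE size factors, library size alone, DESeq2 1.42.0, no filter, each mouse left out, the replicate number as a block, and marker scores as covariates. Leaving out KO replicates 1 and 2 and the ratio to pan-epithelial markers were added after the data had been seen. Genes named are the members, the pathway genes that were called or were the most abundant or closest relatives, the markers, and the nearest gene to each member. *Scarb1*, *Aldh8a1*, *Crabp1* and *Crabp2* lie outside this rule and were named, and *Cd79a* singled out, after their values were seen. The members and lists were chosen with earlier results of these data known.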

Additional observations from a re-analysis of the deposited data

Results flagged for a closer look

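In 8 of 58 groups of 5 libraries, from 29 genes, 1 library stood apart from the other 4 by Dixon's criterion, which chance gives in about 1 of 20 groups. Of these, 3 were KO replicate 1, with 160.1 CPM of *Slc39a14* (the other KO libraries 78.5 to 93.8), 1448 CPM of *Mttp* (280.1 to 543) and 20.7 CPM of *Aldh1a2* (7.92 to 10.0). KO replicate 5 had 164 CPM of *Cd38* (93.9 to 107). In WT, replicate 5 had 42.0 CPM of *Lrat* (61.3 to 68.9), replicate 1 had 59.9 CPM of *Rdh11* (49.2 to 51.2), replicate 3 had 944.8 CPM of *Adh1* (221 to 429) and replicate 4 had 11.1 CPM of *Rarg* (6.32 to 7.29).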

How the results depend on the processing

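The count of 5 members called lower was 5 with RLE size factors, library size alone, DESeq2 and no filter, and 4 to 5 when 1 mouse was left out. The count of members called higher ranged from 0 to 2 over the mice left out, falling to 0 without WT replicate 1 and to 1 without WT replicates 2, 3, 4 or 5 or KO replicates 3, 4 or 5. For the pathway list the ranges were 12 to 15 lower and 3 to 6 higher. Over all genes tested in the same fits, 9.90% to 16.1% were called lower and 10.3% to 18.5% higher. With all mice these shares were 13.9% and 16.0%, so a lost call is not particular to these genes. With the smooth muscle or the pan-epithelial score as a covariate, 0 members and 0 pathway genes were called in either direction, where 15 pathway genes lower and 4 higher were called without it, and *Aldh1a1* changed sign to 0.073 with the pan-epithelial score. Neither score overlapped between the groups, so genotype and these scores cannot be told apart. With the replicate block, 4 members were lower and 1 was higher, and calls over all genes fell from 4660 to 3848. *Aldh1a1* (-0.97, adjusted p = 0.0800) and *Stra6* (2.79, adjusted p = 0.0745) were not past the threshold in that fit. Replicate numbers came with no stated pairing. Mice of the same number had correlations of their deviations between -0.17 and 0.18, and 1 of 5 WT mice matched the KO mouse of its own number best. Scaling by library size alone gave 3608 genes higher and 1589 lower, against 2491 and 2169. *Rarb* ranged from -0.24 to 0.05 over the mice left out. *Rarb* and *Stra6* had at most 98 counts in a library, which limits their precision.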
